A study of Mus musculus with 6 samples.

Results

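The Six5-Dmpk locus is a gene-dense stretch of mouse chromosome 7 that holds Sympk, Dmwd, Dmpk, Six5, Fbxo46, Qpctl and Snrpd2 in this order. These 7 genes were taken by name and position, out of 24732 gene symbols with values. The neighbourhood was picked because Six5 was much lower after CTCF knockdown in these same samples, so the difference between the groups is given for the 7 genes as a description, without a test. In mm9 the genes lie within 128.4 kb, from the first base of Sympk at 19609726 to the last base of Snrpd2 at 19738075.

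RNA-seq was performed on cultured female germline stem cells (FGSCs), with 3 control samples and 3 samples in which CTCF was knocked down by a short hairpin RNA (shCTCF). The labels give strain C57BL/6 and more than 20 passages for all 6 samples. The cells were kept on STO feeder cells, a mouse fibroblast line. According to the study's methods the hairpin was brought in by lentivirus and infected cells were selected with puromycin, whereas what the control cells received is not given in the sources used here. The labels do not say whether the replicates came from separate cultures, so p-values measure the spread between these samples, which may be technical.

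The locus is best known from human disease. An expanded CTG repeat in DMPK, the gene of a serine/threonine kinase of muscle, causes myotonic dystrophy type 1, and the repeat lies just upstream of SIX5, the gene of a homeodomain transcription factor. CTCF, a zinc finger protein that organises chromatin loops and insulates domains, is known to bind on both sides of the repeat in human cells. The other genes have unrelated roles. Sympk encodes symplekin, a scaffold of the machinery that forms the ends of mRNAs, and Snrpd2 encodes a protein of the Sm ring at the core of spliceosomal snRNPs. Qpctl encodes a Golgi glutaminyl cyclase that modifies the N terminus of proteins such as CD47. Dmwd encodes a WD repeat protein, and Fbxo46 encodes an F-box protein, the substrate receptor type of SCF ubiquitin ligases.

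Ctcf itself was at 58.2, 56.1 and 53.5 FPKM (fragments scaled to transcript length and to the number of mapped fragments) in control replicates 1, 2 and 3. In the shCTCF samples it was at 0.74, 0.55 and 0.629 FPKM. The groups did not overlap, and the log2 fold change was -5.12 ± 0.09 (SE; limma adjusted p = 1.1e-08). All samples had 0 counts for Ctcf in the count table, which drops fragments that fall on more than 1 transcript.

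The total counts per sample lay between 1686052 and 7044272. Control replicate 2 was the smallest library, in which 3 counts correspond to 1.779 CPM (counts scaled to the library total). Of 8 germ cell markers only Etv5 and Zbtb16 reached a mean of 1 FPKM in the controls, and Ddx4, Dazl, Dppa3, Pou5f1 and Gfra1 were listed at 0 FPKM in every control sample. Summed over the 8 germ cell markers, the level was 19.5 to 19.8 FPKM in the controls, against 24.9 to 26.2 FPKM after knockdown. The higher sum came from Ifitm3 (0.737 to 10.8 FPKM), whereas Etv5 (17.3 to 14.2) and Zbtb16 (1.56 to 0.288) were lower. Among 11 mast cell markers, 6 reached a mean of 1 FPKM in the controls, with Kit at 575 ± 35.8 and Gata2 at 501 ± 43.5 (SD, n = 3), while Fcer1a was at 0 in all samples. Their sum was 1480 to 1550 FPKM in the controls, against 1500 to 1570 FPKM in the shCTCF group, but single markers differed widely, with Ctsg at 151 and 2.22 FPKM, Cpa3 at 281 and 88.0, Hdc at 4.25 and 87.2 and Kit at 575 and 787. The 7 macrophage and leukocyte markers summed to 257 to 275 and 385 to 414 FPKM. Most of the higher sum was Cd68 (44.7 to 137), and Adgre1 (56.7 to 73.7) and Lyz2 (0.0274 to 3.29) were also higher. Ptprc and Spi1 overlapped between the groups, and Csf1r (0.14 to 0.0689) and Itgam (0.0836 to 0.121) were near 0. The 12 fibroblast markers of the feeder layer summed to 12.3 to 13.0 and 8.65 to 8.99 FPKM. Of these, Col1a1, Col1a2 and Col3a1 had a mean below 0.1 FPKM in both groups, Dcn, Fn1 and Pdgfrb were lower after knockdown, and Pdgfra and Thy1 were higher. The part of these cell types in the values of the locus was not tested. In such bulk samples, fewer cells of a type and less RNA per cell cannot be told apart.

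The promoters are shown for Six5, the gene with the lowest log2 difference, for Dmpk just upstream of it, and for Snrpd2, the most abundant transcript of the locus. The sequences are those of RefSeq (assembly GRCm38.p6), from 250 bases before to 50 bases after the gene start of that assembly, which for Dmpk lies slightly to the right of the start in the mm9 table. Each of the 6 promoters found was matched exactly and at a single place on chromosome 7 of mm9 (NCBIM37). All 3 are on the plus strand, at chr7:19679643-19679942 for Six5, chr7:19668957-19669256 for Dmpk and chr7:19734937-19735236 for Snrpd2. Capitals mark AGGGGGC, a form of the central letters of the CTCF motif.
Six5 promoter: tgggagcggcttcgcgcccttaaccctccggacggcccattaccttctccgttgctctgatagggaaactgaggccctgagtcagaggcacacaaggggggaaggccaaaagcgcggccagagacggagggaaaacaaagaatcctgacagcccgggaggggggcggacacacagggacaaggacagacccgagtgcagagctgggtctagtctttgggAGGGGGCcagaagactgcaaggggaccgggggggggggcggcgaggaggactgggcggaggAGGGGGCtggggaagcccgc
Dmpk promoter: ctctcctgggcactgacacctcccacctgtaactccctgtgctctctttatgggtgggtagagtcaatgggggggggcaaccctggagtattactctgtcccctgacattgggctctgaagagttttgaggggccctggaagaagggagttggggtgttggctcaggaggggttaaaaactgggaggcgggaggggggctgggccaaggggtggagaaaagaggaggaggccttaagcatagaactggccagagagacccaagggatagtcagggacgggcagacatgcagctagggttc
Snrpd2 promoter: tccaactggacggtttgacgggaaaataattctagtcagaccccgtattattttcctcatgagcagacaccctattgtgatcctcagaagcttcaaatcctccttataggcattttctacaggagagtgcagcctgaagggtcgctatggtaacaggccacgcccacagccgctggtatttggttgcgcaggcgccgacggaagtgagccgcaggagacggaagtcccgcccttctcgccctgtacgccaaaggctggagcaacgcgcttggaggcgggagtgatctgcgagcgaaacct

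Besides AGGGGGC, the form AGGTGGC with T in the middle was searched on both strands, as were the form AGAGGGC and lastly the form AGATGGC. The Six5 promoter held AGGGGGC at 2 places, of which the first letters lay 31 bases before the gene start and at base 31 of the transcribed part. The promoters of Sympk, Dmwd, Dmpk, Fbxo46 and Snrpd2 held none of the 4 forms. In the whole table, 27.6% of 32851 promoters held at least 1 match and 5.18% held at least 2. A match is a description of the letters and not a site of binding, since no binding data were analysed here.

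The promoters also differed in base composition. The Dmpk promoter held 2 CpG dinucleotides, whereas 38 were found in that of Sympk, 25 in that of Dmwd, 17 in that of Six5, 16 in that of Fbxo46 and 20 in that of Snrpd2. The median over all promoters was 7. The GC content ranged from 55.3% in the Snrpd2 promoter to 69.7% in that of Sympk, compared with a median of 52.7% over all promoters.

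Most of the 7 genes lie close to each other. Only 1073 bases separate the end of Dmwd from the start of Dmpk, and 723 bases separate the end of Dmpk from the start of Six5. The longest gaps are the 21577 bases between Sympk and Dmwd and the 21513 bases between Six5 and Fbxo46. The annotation places Rsph6a and Mir3100 inside the span as well. Qpctl is the only one of the 7 genes on the minus strand, and its start and that of Snrpd2 face each other across 641 bases. No exon base of the 7 genes is shared with another gene.

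**Figure D1:**
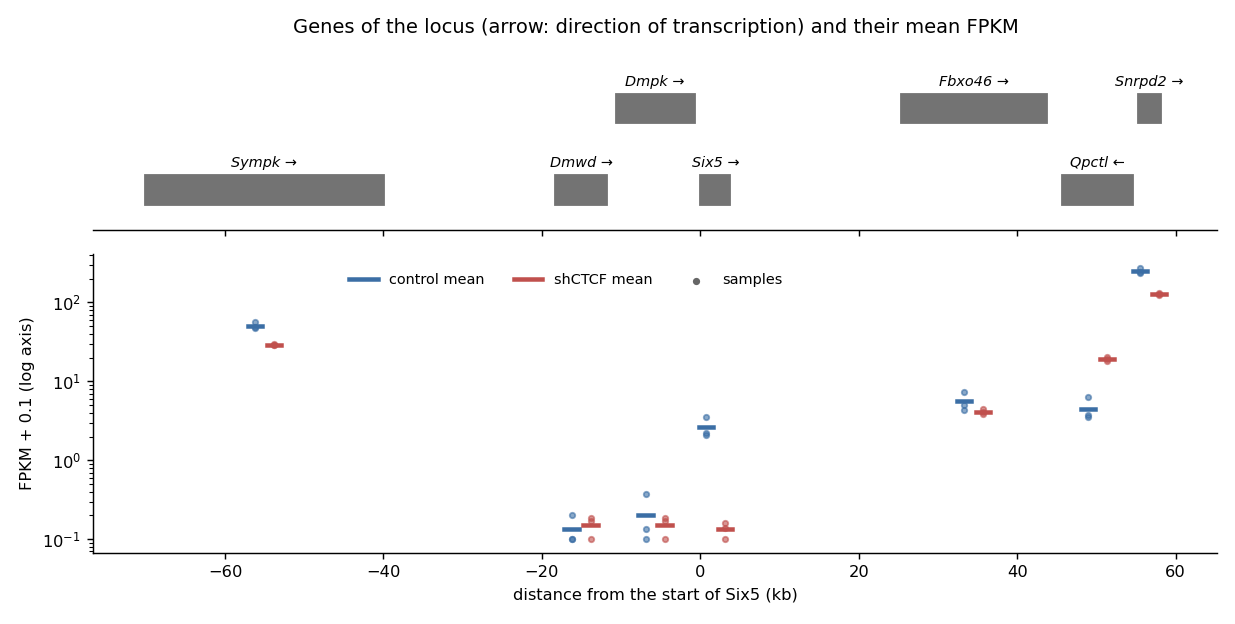
The upper panel shows the extent and direction of the 7 genes by their distance from the start of Six5 in kb, and the lower panel shows FPKM + 0.1 on a log axis, with bars for group means (n = 3) and points for samples. Six5 stood above Dmpk and Dmwd in the controls and was at their level in the shCTCF samples.

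The order of the levels was read on the FPKM scale, which is per length. In the controls the order was Snrpd2, Sympk, Fbxo46, Qpctl, Six5, Dmpk and Dmwd, and the ranges of Fbxo46 and Qpctl, of Qpctl and Six5, and of Dmpk and Dmwd overlapped. In the shCTCF samples the order was Snrpd2, Sympk, Qpctl, Fbxo46, Dmwd, Dmpk and Six5, and the ranges of the last 3 overlapped. Qpctl therefore stood above Fbxo46 without overlap after knockdown, and Six5 was last by its mean instead of the fifth.

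Six5, a single-transcript gene of 3 exons and 2853 exon bases (chr7:19679893-19683694, plus strand), was at 1.99, 3.42 and 2.13 FPKM in the controls. In the shCTCF samples it was at 0, 0.0387 and 0.0624 FPKM. Every shCTCF sample was thus far below every control sample. The mean was 2.51 ± 0.788 FPKM in the controls, against 0.0337 ± 0.0315 FPKM in the shCTCF group (SD, n = 3), which is a change of -98.7%. The difference on the log2(FPKM + 1) scale was -1.74 ± 0.18 (SE), a scale on which the change of a gene this low is understated, and 3.25% of the 9976 genes tested had a lower value.

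The count table gave the same picture for Six5 from few reads. The controls had 70, 32 and 81 counts, and the shCTCF samples had 0, 1 and 2 counts. In CPM these were 10.1, 17.8 and 11 in the controls, against 0, 0.199 and 0.312 after knockdown. On plain library totals, without the TMM adjustment, 3 counts would be 0.442 to 0.564 CPM in the shCTCF samples. Pooled over samples, 183 of 15294302 counts in the controls stood against 3 of 17992657, a ratio of 71.8 with an exact 95% counting interval of 24.2 to 351. Without control replicate 2 the ratio was 66.6 (22.3 to 326). These intervals cover counting error only. Six5 passed the filter of a mean of 1 FPKM only through its control samples.

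Dmpk, directly upstream of Six5 (chr7:19669198-19679169, plus strand), was barely detected. Its FPKM values were 0, 0.275 and 0.0331 in the controls, against 0, 0.0843 and 0.0678 in the shCTCF samples, and the groups overlapped. All samples had 0 counts, but 4 overlapping transcripts are annotated and only 125 of its 2885 exon bases belong to a single one, so the count table could hardly register the gene. A difference of Dmpk between the groups was not detectable from these values.

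Dmwd, the next gene upstream (chr7:19661549-19668124, plus strand), was just as low although all its 2520 exon bases are countable. It was at 0, 0 and 0.103 FPKM in the controls and at 0, 0.0877 and 0.0706 FPKM in the shCTCF samples. It had 0, 1 and 4 counts in control replicates 1 to 3, against 3, 2 and 3 counts after knockdown. The groups overlapped, and with so few reads no fold change is given. Dmpk and Dmwd did not pass the filter, so log2 fold changes exist for 5 of the 7 genes.

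Sympk (chr7:19609726-19639971, plus strand) was at 48.1, 56.5 and 47.4 FPKM in the controls. It was at 29.2, 29.1 and 28.7 FPKM in the shCTCF samples. The shCTCF values lay close together and below all controls. The mean was 50.7 ± 5.09 against 29.0 ± 0.272 FPKM (SD, n = 3), a change of -42.8%, with a log2 fold change of -0.78 ± 0.08 (SE). In counts the log2 fold change was -0.54 ± 0.12.

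The 2 annotated Sympk transcripts each have exon bases that belong to only 1 of them. The one with the longer genomic span, with 1079 bases of its own, gave 521, 168 and 482 counts in the controls, against 283, 256 and 325 in the shCTCF samples, or 78.0 ± 14.3 and 51.2 ± 0.624 CPM. The one with the shorter span ends in its own 1162 bases, which lie in an intron of the longer one, and gave 23, 8 and 27 against 22, 17 and 23 counts. Its CPM was 3.81 ± 0.58 in the controls, against 3.67 ± 0.327 in the shCTCF group. The lower level was thus seen in the reads on the longer transcript's own bases, while those on the shorter one's own bases overlapped between the groups. Because the latter bases lie in an intron of the longer transcript, their few reads cannot be assigned to the shorter one with certainty. The FPKM of the shorter transcript was listed at 0 in all samples.

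Snrpd2 (chr7:19735187-19738075, plus strand, 488 exon bases) was at 233, 273 and 243 FPKM in the controls. After knockdown it was at 129, 130 and 123 FPKM. This was the most abundant gene of the locus in both groups, and its groups did not overlap. The mean was 250 ± 20.9 against 127 ± 3.7 FPKM (SD, n = 3), a change of -49.0%, and the log2 fold change was -0.96 ± 0.07 (SE). The counts were 1378, 423 and 1530 against 674, 642 and 782, with a log2 fold change of -0.77 ± 0.08.

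Qpctl (chr7:19725566-19734545, minus strand, 2100 exon bases) went the other way. It was at 3.41, 6.19 and 3.68 FPKM in the controls and at 20.1, 19.0 and 18.1 FPKM in the shCTCF samples. All shCTCF values were above all controls. The mean was 4.43 ± 1.53 against 19.1 ± 0.996 FPKM (SD, n = 3), which is 4.31-fold higher, or 5.38-fold without control replicate 2. The log2 fold change of 1.92 ± 0.18 (SE) was higher than that of 95.9% of the genes tested.

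The counts of Qpctl were 103, 49 and 107 in the controls, against 505, 431 and 531 in the shCTCF samples. In CPM this was 18.9 ± 7.26 against 87.1 ± 4.99, a 4.61-fold higher level. Qpctl was thus the only gene of the 5 with a higher level after knockdown, and it faces Snrpd2, which was lower.

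Fbxo46 (chr7:19705208-19723610, plus strand, 2962 exon bases) lies between Six5 and Qpctl. It was at 4.89, 7.32 and 4.28 FPKM in the controls and at 3.75, 3.96 and 4.33 FPKM in the shCTCF samples. The groups overlapped, since shCTCF replicate 3 was above control replicate 3. The mean was 5.5 ± 1.6 against 4.01 ± 0.29 FPKM, the log2 fold change was -0.35 ± 0.17 (SE), and the ratio of control to shCTCF was 1.37, or 1.14 without control replicate 2. In counts the log2 fold change was -0.12 ± 0.18.

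**Figure D2:**
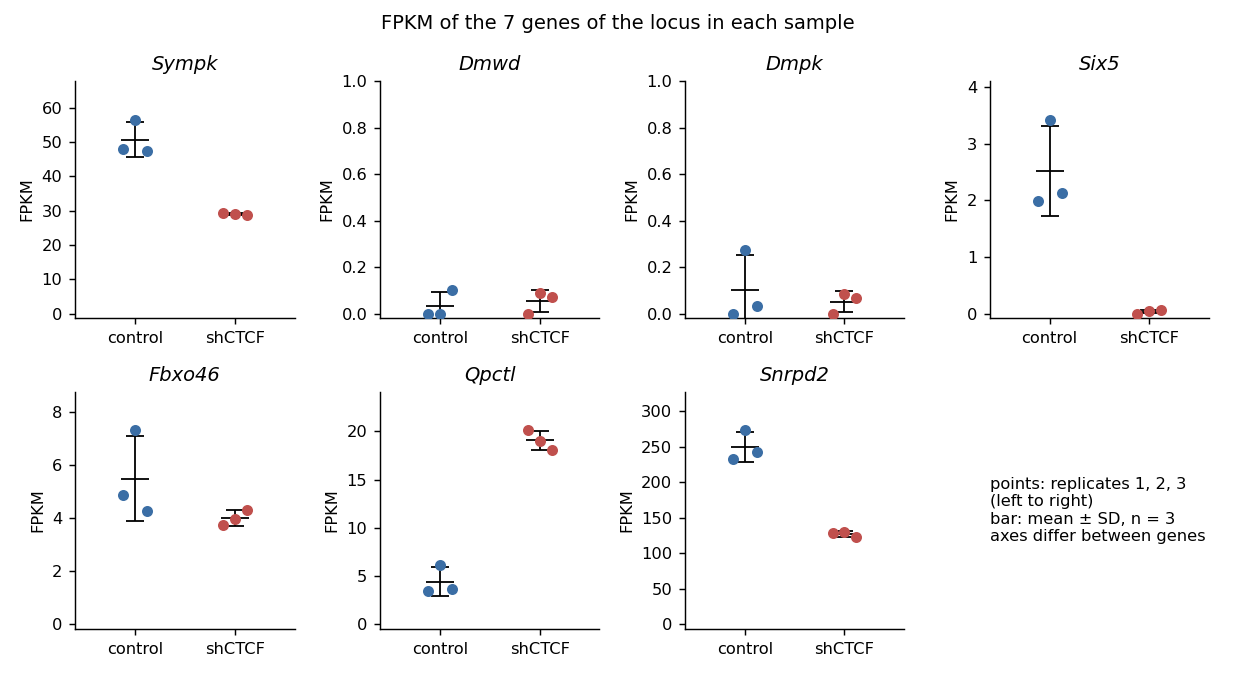
FPKM of each of the 7 genes in the 3 control and 3 shCTCF samples, with points for samples and bars for the mean ± SD (n = 3), on a separate axis for each gene. Six5, Sympk and Snrpd2 were lower and Qpctl was higher in every shCTCF sample than in any control, and the groups overlapped for Fbxo46, Dmpk and Dmwd.

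Such differences were common in these samples. Six5, Sympk and Snrpd2 did not overlap between the groups and were lower in shCTCF, as were 45.8% of all 9976 genes tested. Qpctl did not overlap and was higher, as were 30.8%. A log2 difference below 0 was found for 4 of the 5 genes and for 58.7% of all genes. All genes together had a median log2 fold change of -0.17, and relative to it the values were -1.57 for Six5, -0.61 for Sympk, -0.79 for Snrpd2, -0.18 for Fbxo46 and 2.09 for Qpctl. Control replicate 2 was the highest control for all 5 genes and for 45.4% of all genes.

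The genes whose pattern was most like that of Six5 were sought by Pearson's r of log2(FPKM + 1) over the 6 samples. Dhx37, Cct5 and Bag6 each had r = 0.9995, and Sars and Kifc3 had r = 0.9994. These were all lower in shCTCF and highest in control replicate 2, as was Six5. For example, Dhx37, a helicase gene, was at 14.7, 18.8 and 14.8 FPKM in the controls and at 7.66, 7.8 and 7.99 in the shCTCF samples. Among the genes of the locus r was 0.9982 for Sympk, 0.9953 for Snrpd2, 0.78 for Fbxo46 and -0.91 for Qpctl. A high r was not particular to any of them, because 2521 of 9975 genes reached an r of at least 0.95 and all share the same 6 libraries and the same split between groups.

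The other genes around the locus were chosen by position alone and could be tested. Of 42 other genes within 500 kb of Six5, 18 had a mean of at least 1 FPKM, and 12 were at 0 FPKM in all samples. Among these 18 genes, 14 (77.8%) passed the test, 9 lower and 5 higher in shCTCF (limma on log2(FPKM + 1), Benjamini-Hochberg adjusted p under 0.05). Of all genes tested, 73.0% passed, 44.2% lower and 28.8% higher, so the share within 500 kb was close to the background. Within 250 kb all 7 genes tested passed, 6 lower and 1 higher, with a median log2 fold change of -0.74. The 1 higher was Fosb, which entered the test only through the shCTCF samples. Among the 6 lower, Mypop lost its call in 8 alternatives. The median log2 fold change of the 18 genes was -0.11, beside -0.17 for all genes. After scaling all samples to a common median, 12 of the 18 passed, 6 in each direction, while the median of all genes was -0.01. In that setting 7087 of all 9976 genes passed, 3606 lower and 3481 higher.

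On counts, 7 of 13 genes within 500 kb passed (53.8%; edgeR), 3 lower and 4 higher, compared with 69.1% of all genes, 34.3% lower and 34.8% higher. With scaling by library size only, 8 of the 13 passed, 5 lower and 3 higher, beside 5226 of all 7341 genes, 3059 lower and 2167 higher. Without control replicate 2, 14 of 18 genes passed on FPKM, beside 7919 of all 10014 genes. On counts 8 of 13 passed, beside 5662 of all 7668 genes.

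The nearest genes on the left were Foxa3, Irf2bp1, Mypop, Nanos2 and Nova2. Irf2bp1, the gene of a transcriptional corepressor, was at 10.8, 11.1 and 11.2 FPKM in the controls and at 4.57, 4.01 and 4.75 in the shCTCF samples. It fell by 1.15 on the log2 scale (SE 0.09, limma adjusted p = 1.38e-05). Mypop, the gene of a Myb-type repressor, passed narrowly (log2 fold change -0.51, limma adjusted p = 0.0497) although its groups overlapped, and it did not pass when samples were scaled to the same median (adjusted p = 0.121) or on counts (-0.19, edgeR adjusted p = 0.485). Foxa3, Nova2 and Nanos2, a gene known for keeping male germline stem cells undifferentiated, were listed at 0 FPKM in all samples.

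The nearest genes on the right were Gipr, Eml2, Mir330, Gpr4 and Opa3. Eml2, the gene of a microtubule-associated protein, was at 26.3, 31.5 and 26.1 FPKM in the controls and at 12.8, 12.1 and 12.4 in the shCTCF samples. It fell by 1.10 on the log2 scale (SE 0.09, limma adjusted p = 1.89e-05). On counts Eml2 did not pass (-0.93, SE 0.41, edgeR adjusted p = 0.0579), with 22, 9 and 15 counts in the controls and 10, 6 and 10 after knockdown. Opa3, the gene of a mitochondrial protein, fell from 15.5 ± 2.47 to 9.8 ± 1.09 FPKM (limma adjusted p = 0.00324). Gipr, Mir330 and Gpr4 stayed under 0.2 FPKM in every sample.

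On the left of the locus 3 genes were tested on FPKM and passed as lower, with Mypop the least firm of them, and 2 of the 3 passed on counts. On the right 6 fell and 5 rose among 15 on FPKM, and 1 fell and 4 rose among 10 on counts. Of those on FPKM, Cd3eap and Ercc1, which fell, lost their calls in 7 and 2 alternatives, and Gemin7, which rose, in 10. A difference between the sides was not tested. Besides Irf2bp1 and Eml2, the largest fall was that of Ccdc61, a gene of centriolar biology, from 12.1 ± 2.35 to 4.46 ± 0.712 FPKM (log2 fold change -1.26, limma adjusted p = 0.00015). Zfp296, a zinc finger gene, rose from 3.71 ± 1.14 to 11 ± 2.19 FPKM (1.36, limma adjusted p = 0.000449). Trappc6a, a gene of vesicle tethering, rose from 11.7 ± 1.99 to 20.6 ± 2.81 FPKM (0.77, adjusted p = 0.00176). Fosb, an AP-1 gene, was at 0.473 ± 0.177 and 1.84 ± 0.346 FPKM and entered the test only through the shCTCF samples, where it was high. Without it, a count made after its values were seen, 13 of 17 genes passed, 9 lower and 4 higher. Both Fosb and Trappc6a had 0 counts in the count table.

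**Figure D3:**
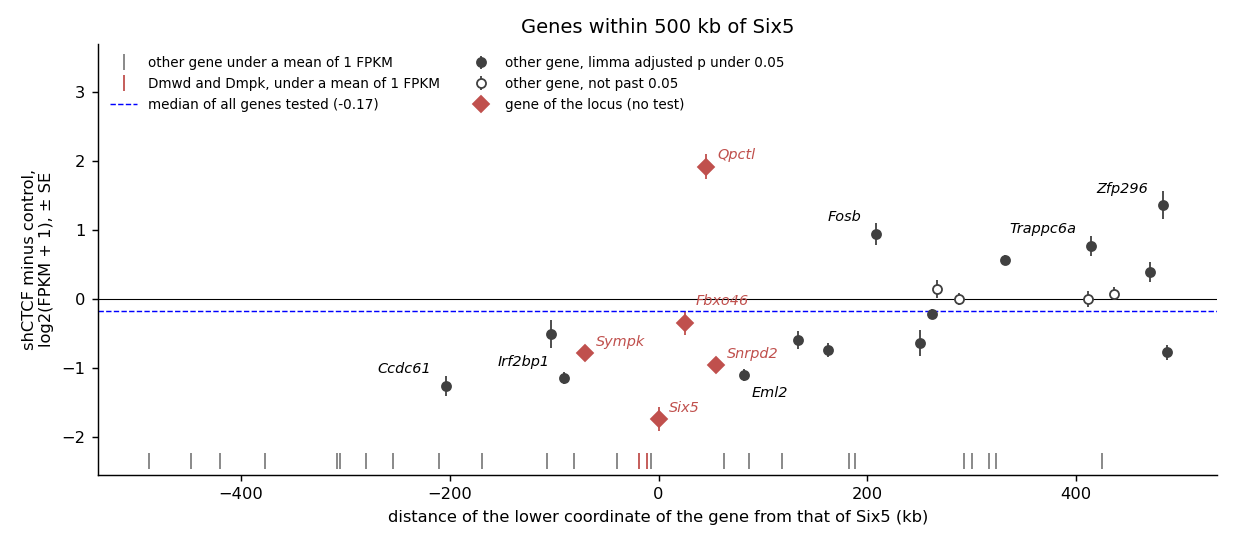
Log2 fold change (shCTCF minus control, log2(FPKM + 1), ± SE) of the genes within 500 kb, against their distance from Six5 in kb. Filled circles passed the limma test, open circles did not, diamonds are genes of the locus, which were not tested, and ticks at the bottom are genes under a mean of 1 FPKM. Zfp296 lay highest of the circles at 1.36 and Ccdc61 lowest at -1.26.

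The genes that act with the 7 genes, or belong to their families, were followed next. Their counts stand against 73.0% of all genes past the test on FPKM, 44.2% lower and 28.8% higher. Of 78 such genes in 8 lists, 60 were tested on FPKM and 49 passed (81.7%), 36 lower and 13 higher. With a common median for all samples, 47 of the 60 passed, 31 lower and 16 higher. In that setting 7087 of all 9976 genes passed, 3606 lower and 3481 higher. In counts 33 of 43 passed (76.7%), compared with 69.1% of all genes.

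Proteins of the family of Six5 work with EYA coactivators and DACH cofactors. Of 11 genes of this network 4 were tested and 2 passed (50.0%, below the 73.0% of all genes), both higher. Dach2 was at 1.8, 2.09 and 1.95 FPKM in the controls and at 8.06, 10.2 and 8.42 after knockdown (log2 fold change 1.74, limma adjusted p = 5.43e-06). Eya3 rose from 12.3 ± 0.668 to 25.1 ± 0.249 FPKM (0.97, adjusted p = 1.06e-05). Both rest on the FPKM table, since no sample had more than 3 counts of either gene. Six4, the relative closest to Six5, was at 3.03 ± 1.05 and 2.21 ± 0.618 FPKM with overlapping groups (adjusted p = 0.227).

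The MBNL and CELF proteins are the RNA-binding factors whose activity is altered in myotonic dystrophy. Of 9 genes 6 were tested and 3 passed (50.0%), 2 lower and 1 higher, and with 1 lower and 3 higher when samples were scaled to the same median. Celf2 was at 43.7, 33.0 and 41.7 FPKM in the controls and at 18.2, 18.3 and 17.4 in the shCTCF samples (log2 fold change -1.08, limma adjusted p = 5.29e-05), a call that was lost when only its most abundant transcript was used. Mbnl2 (0.49, adjusted p = 0.0401) and Mbnl3 (-0.58, adjusted p = 0.0396) passed narrowly and were lost in 4 and 8 alternatives. Mbnl1 was at 105 ± 36.2 and 95.4 ± 3.87 FPKM and did not pass, but it passed without control replicate 2. On counts it fell by 1.11 on the log2 scale (edgeR adjusted p = 0.00531). This rests on few reads for a gene at this FPKM, with 37, 6 and 37 counts in the controls and 13, 10 and 15 after knockdown. Celf3, the other gene of the list tested on counts, rose by 0.91 (edgeR adjusted p = 0.0269).

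Among the kinases related to DMPK, 8 of 10 were tested and 6 passed (75.0%, close to the 73.0% of all genes), 3 higher and 3 lower. Rock1, which was lower (-0.47, limma adjusted p = 0.039), lost its call in 8 alternatives, Lats1 in 2 and Cdc42bpa in 1. Lats2, a Hippo pathway kinase, rose from 1.37 ± 0.293 to 5.7 ± 0.862 FPKM (log2 fold change 1.50, limma adjusted p = 4.11e-05). Cit, the gene of the cytokinesis kinase citron, fell from 7.4 ± 0.747 to 2.23 ± 0.429 FPKM (-1.38, adjusted p = 3.75e-05). Stk38l rose from 1.84 ± 0.311 to 3.26 ± 0.347 FPKM (0.58, adjusted p = 0.00408).

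Genes of mRNA cleavage and polyadenylation, the machinery that symplekin holds together, were all measured. Of 19 genes 17 passed (89.5%, compared with 73.0% of all genes), 13 lower and 4 higher, with a median log2 fold change of -0.60 beside -0.17 for all genes. Nudt21, the small subunit of cleavage factor I, was at 83.9, 86.5 and 85.8 FPKM in the controls and at 24.9, 22.8 and 24.9 in the shCTCF samples (-1.78, limma adjusted p = 3.28e-07). Cpsf1 fell from 30.4 ± 5.3 to 8.41 ± 0.517 FPKM (-1.72, adjusted p = 8.43e-06), and Cstf2 from 27.2 ± 3.12 to 9.32 ± 0.25 FPKM (-1.44, adjusted p = 6.13e-06). Cpsf1 had 0 counts in all samples. The call of Cstf2 was lost and its sign turned when only its most abundant transcript was used. Cpsf7 and Wdr33, which were lower, also lost their calls in that setting. There 14 of the 19 genes passed, 10 lower and 4 higher, beside 6388 of all 9878 genes. On counts the log2 fold change of Wdr33 was 0.17 (edgeR adjusted p = 0.0868). The genes that rose were Rbbp6, Pcf11, Cstf3 and Ssu72, of which Ssu72 (0.20, limma adjusted p = 0.0379) lost its call in 6 alternatives. In counts the split was 6 lower and 4 higher of 13 tested, and the median was -0.05.

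Snrpd2 is a member of the Sm ring, which the SMN complex loads onto snRNAs. Of 16 other genes of the ring and the complex 15 were tested and all 15 passed, 14 lower and 1 higher, where 44.2% of all genes were lower and 28.8% higher. Gemin6 and Gemin8, which were lower, lost their calls in 8 and 7 alternatives, and with samples scaled to the same median 12 fell and 1 rose. Snrpg was at 234, 266 and 266 FPKM in the controls and at 70.7, 78.8 and 78.3 in the shCTCF samples (log2 fold change -1.74, limma adjusted p = 7.94e-07). Snrpf fell from 126 ± 16.8 to 37.5 ± 2.87 FPKM (-1.72, adjusted p = 3.76e-06), and Gemin5 from 22.3 ± 0.873 to 8.07 ± 0.183 FPKM (-1.36, adjusted p = 2.04e-06). The median was -0.86, beside -0.17 for all genes. The gene that rose was Gemin7, which also lies within 500 kb of Six5 and passed narrowly (0.39, adjusted p = 0.0475). In counts 10 fell and 1 rose of 12 tested, with a median of -0.66, where 34.3% of all genes were lower and 34.8% higher.

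The remaining lists were short. Cd47, whose protein is a substrate of QPCTL, rose from 161 ± 14.7 to 235 ± 17.9 FPKM (log2 fold change 0.54, limma adjusted p = 0.000748). Qpct, the gene of the secreted relative of QPCTL, was listed at 0 FPKM in all samples, and the chemokine substrates Ccl2, Ccl7, Ccl8 and Cx3cl1 had means under 1 FPKM. Of the 4 genes of the USP12 and USP46 deubiquitinases, whose partners are WD repeat proteins, Usp46 (-0.67, adjusted p = 0.00188) and Wdr48 (-0.65, adjusted p = 0.000117) fell and Usp12 rose (0.64, adjusted p = 0.00013). Of the 3 SCF core genes, Rbx1 fell (-0.58, adjusted p = 0.000525), Skp1 passed narrowly (-0.36, adjusted p = 0.0499, lost in 11 alternatives), and Cul1 was at 110 ± 15.3 and 123 ± 4.3 FPKM.

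**Figure D4:**
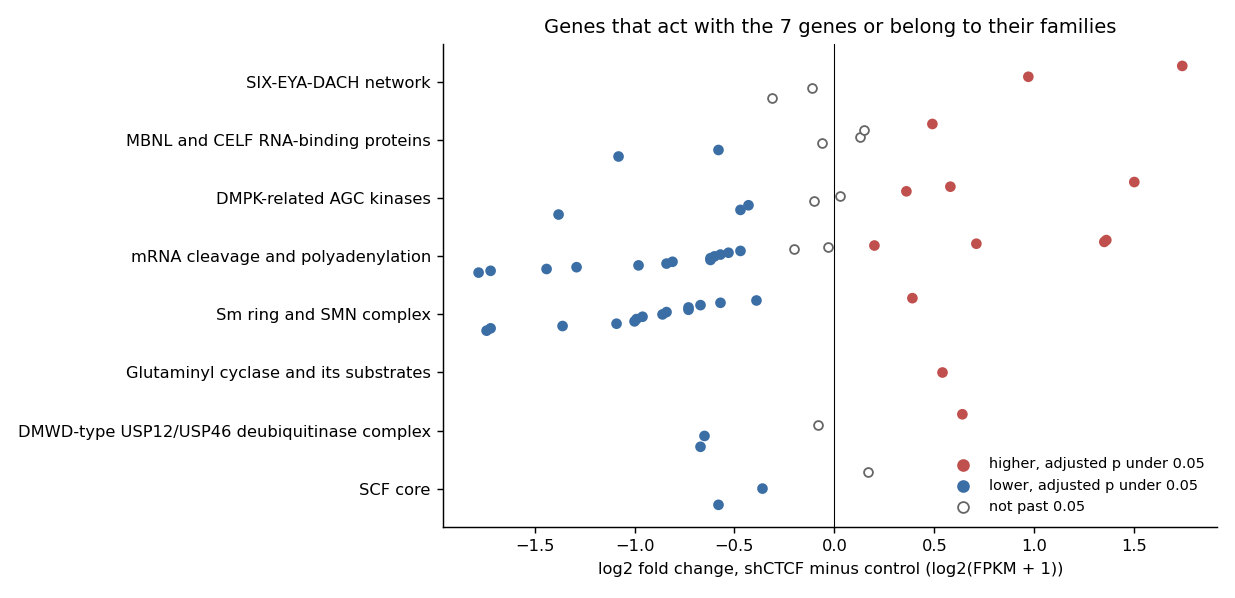
Log2 fold change (shCTCF minus control, log2(FPKM + 1)) of each tested gene in the 8 lists, with filled points for genes that passed the limma test and open points for the others. Of the 15 Sm ring and SMN complex genes 14, and 13 of the 19 cleavage and polyadenylation genes lay below 0 and passed.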

How the data were processed

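Gene expression was measured by RNA-seq in 3 control and 3 shCTCF samples of cultured FGSCs, and all 6 were used. Reads of a stranded mRNA kit were aligned by the authors to mm9 after trimming with HISAT2 (version 4.8.2 in the submitters' processing notes). The deposited FPKM values were calculated by the authors with Cufflinks 2.2.1 and are scaled to transcript length and depth. The deposited counts, made by the authors with featureCounts 1.6.2, are whole fragments per RefSeq transcript, not normalized and counted without strand, and a fragment on exons of more than 1 transcript was dropped. The tables held 41876 and 41388 transcripts, of which 41685 and 41186 received a gene symbol from a RefSeq table of GRCm38.p6, and values were summed per symbol. Transcripts without a symbol held at most 0.603% of a sample's counts. Coordinates are those of mm9, counted from 1, and distances were taken between the lower coordinates of genes.

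Genes whose mean reached 1 FPKM were tested with limma 3.58.1 on log2(FPKM + 1) (eBayes with trend), and the counts with the quasi-likelihood test of edgeR 4.0.16 (TMM normalization, filterByExpr). Tests were two-sided and Benjamini-Hochberg adjusted over all genes tested, with a threshold of 0.05. The fits were tested on simulated data. A fold change on the log2(FPKM + 1) scale understates the change of low genes. Within groups, replicates differed beyond counting noise (chi-square per degree of freedom of 2.07 to 8.17). Alternatives were other pseudocounts, filters, scalings, windows and tools, the most abundant transcript in place of the sum, a replicate block, and each replicate left out. The members of the locus and the gene lists were chosen with earlier results of these data known. The named genes were the 7 genes, Ctcf, cell type markers, the 5 nearest genes on each side, the 3 largest rises and falls within 500 kb, up to 3 genes of each list that passed with the largest change, and the 5 genes most like Six5. Other genes named, among them those not detected or not past the threshold, were chosen after their values were seen.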

Additional observations from a re-analysis of the deposited data

How the results depend on the processing

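The log2 fold changes of Six5, Sympk, Snrpd2 and Qpctl kept their direction under every alternative that gave a value. That of Six5 was -4.28 with a pseudocount of 0.1 and -6.22 with 0.01. With each sample scaled to the same median the value was -0.60 for Sympk and -0.78 for Snrpd2. In the count table (edgeR) it was -0.54 for Sympk, -0.77 for Snrpd2 and 2.38 for Qpctl. With each replicate left out in turn, the values ranged from -1.85 to -1.72 for Six5, from -0.83 to -0.70 for Sympk, from -1.01 to -0.90 for Snrpd2, from 1.79 to 2.14 for Qpctl and from -0.48 to -0.16 for Fbxo46. Without control replicate 2, Six5 no longer reached a mean of 1 FPKM and has no value, and 3 rather than 4 of the genes of the locus had a difference below 0. The genes within 500 kb that passed were 10 to 14 on FPKM and 5 to 8 on counts in the fits with a replicate left out. The listed partner genes that passed were 40 to 53 and 31 to 36. Of all genes, 6577 of 9947 to 7919 of 10014 passed on FPKM in these fits, and 4610 of 7482 to 5662 of 7668 on counts. In a window of 250 kb, 7 of 7 genes tested passed on FPKM, 6 lower and 1 higher, namely Fosb, which entered only through the shCTCF samples. On counts 3 of 5 passed there, all 3 lower. In a window of 1000 kb, 22 of 27 (81.5%) passed on FPKM, 12 lower and 10 higher, and 12 of 19 (63.2%) on counts, 3 lower and 9 higher. Of all genes, 73.0% passed on FPKM, 44.2% lower and 28.8% higher. On counts 69.1% of all genes passed, 34.3% lower and 34.8% higher.

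The replicate numbers are shared between the groups, but samples with the same number did not deviate together (r = -0.041, 0.018 and 0.0395 over 9976 genes). A shared culture or batch is not excluded by this, and the labels do not give one. With the replicate block, 13 of 18 genes within 500 kb passed on FPKM and 6 of 13 on counts. The partner genes that passed were 48 of 60 and 33 of 43. Of all genes, 7137 of 9976 and 4889 of 7341 passed in this setting. The log2 fold changes of the genes of the locus on FPKM were those without the block, which the balanced design fixes in advance. The share of higher genes among all that passed on FPKM was 39.5%, and 49.1% with samples scaled to the same median. Depth limits Six5 after knockdown and Dmwd, which rest on 0 to 4 counts per sample, whereas the 0 counts of Dmpk come with 125 of 2885 exon bases in a single transcript.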

Other observations

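Qpctl and Snrpd2 start head to head, with Qpctl higher and Snrpd2 lower after knockdown. Over the genome, 645 such pairs of genes lay within 1000 bases of each other and were both tested on FPKM. Both genes passed the limma test in 330 pairs, and in 115 of all pairs (17.8%) they did so in opposite directions. The log2 fold changes of Qpctl and Snrpd2 differed by 2.88, whereas the median absolute difference over the pairs was 0.65. A difference at least as large was found in 10 pairs (1.55%), with this pair among those counted. The pair was noticed in these data, so this is a description.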
